A study of Mus musculus with 2 samples.

Results

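The 10 genes described here encode the contractile machinery that mammary myoepithelium shares with smooth muscle, together with the receptor that triggers it. They are the actins Acta2 and Actg2, the myosin light chain Myl9, the myosin light chain kinase Mylk, the myosin heavy chain Myh11, the actin-binding proteins Tagln (transgelin) and Cnn1 (calponin 1), the tropomyosins Tpm1 and Tpm2, and the oxytocin receptor Oxtr. They were chosen by symbol and are 10 of the 27998 genes in the files. Analysed were 2 10X Chromium 3′ libraries of adult FVB/NJ mammary gland, each made from glands of 4 female mice of 10 weeks that were pooled, and no transgene, allele or treatment is named for either. One held sorted basal cells (Lin-CD29hiCD24+) and the other total epithelial cells (Lin-CD24+). The Lin gate removes cells with blood and endothelial surface markers. With 1 library per group there was no replicate, so no difference below has a test between samples. Intervals are 95% intervals that cover counting error only, from the exact Poisson method for a level, Clopper-Pearson for a share and the exact binomial for a ratio.

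In the ducts and alveoli of the mammary gland, basal cells form an outer layer of myoepithelium around the luminal cells. At suckling, oxytocin binds its receptor on these cells, calcium rises, calmodulin activates myosin light chain kinase, and phosphorylated myosin pulls on smooth muscle actin to eject milk. The same contractile proteins are made by vascular smooth muscle cells and pericytes, which are another source of these transcripts in a mammary preparation.

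Depth differed between the libraries. The sorted basal library held 4771 cells with 137 to 1946 counts (UMIs, unique molecules) and a median of 487, whereas the total epithelium held 3302 cells with 802 to 12967 counts and a median of 2425.5. The libraries shared 28 cell barcodes. In the total epithelium, cells were split by keratins and by 2 stromal genes, none of which is among the 10. Basal cells had 5 or more counts of Krt5 and Krt14 together (1179 cells, median 1863 UMIs). Luminal cells had fewer of these and 3 or more of Krt8, Krt18 and Krt19 (1936 cells, median 3005 UMIs). Stromal cells had neither, but 3 or more of Igfbp7 and Sparcl1 (80 cells, median 1285 UMIs), and 107 cells were unclassified. The 10 basal markers, which leave out the contractile genes, summed to 25117 counts per 1000000 (CPM) in the basal class against 249 in the luminal class. The 7 luminal markers summed to 40135 CPM in luminal and 5369 CPM in basal cells. In the shallower sorted library the same rule left 2470 cells unclassified, with basal markers at 14164 CPM. Its 1978 cells passing as basal had basal markers at 27341 CPM and luminal markers at 2468 CPM, and the 193 passing as luminal had 9129 and 15095 CPM. Since most of its cells met no threshold, that library was used whole.

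Promoter sequences of 7 of the 10 genes were found in RefSeq (GRCm38.p6, 250 bases before the start site to 50 after it), and Actg2, Tagln and Myh11 had no entry in the table used. The promoters of Acta2 (chr19:34255324-34255623, minus strand), Myl9 (chr2:156775214-156775513, plus strand) and Oxtr (chr6:112489776-112490075, minus strand) are shown for the actin, the myosin light chain and the receptor. Each is written 5′ to 3′ on the strand of its gene, with matches to either of 2 motifs in capitals. These are the CArG box, bound by serum response factor, and CATTCC, the M-CAT motif of TEAD factors, both searched on both strands with no mismatch allowed.
Acta2: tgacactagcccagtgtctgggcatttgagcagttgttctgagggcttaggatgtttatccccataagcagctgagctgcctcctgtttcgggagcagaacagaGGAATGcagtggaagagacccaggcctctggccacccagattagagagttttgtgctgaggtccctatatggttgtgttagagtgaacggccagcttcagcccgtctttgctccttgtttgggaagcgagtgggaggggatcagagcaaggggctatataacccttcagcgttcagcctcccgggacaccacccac
Myl9: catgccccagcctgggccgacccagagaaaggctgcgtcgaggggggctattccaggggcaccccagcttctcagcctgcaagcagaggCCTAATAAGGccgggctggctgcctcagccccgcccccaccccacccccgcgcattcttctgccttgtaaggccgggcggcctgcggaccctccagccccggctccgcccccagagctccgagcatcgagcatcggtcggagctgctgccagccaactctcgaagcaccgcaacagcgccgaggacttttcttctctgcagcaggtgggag
Oxtr: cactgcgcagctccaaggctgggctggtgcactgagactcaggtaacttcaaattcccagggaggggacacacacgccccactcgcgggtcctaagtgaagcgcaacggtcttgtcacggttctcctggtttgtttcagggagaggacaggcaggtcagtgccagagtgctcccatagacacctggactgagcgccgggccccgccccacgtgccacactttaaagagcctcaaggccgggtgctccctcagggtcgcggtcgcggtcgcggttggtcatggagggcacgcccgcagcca
Myl9 held a CArG box 161 bases before its start and was the 1 of the 7 with an exact match, while 1.63% of all 32851 promoters of this length did. Acta2 held CATTCC on the opposite strand 146 bases before its start. Mylk and Tpm1 held it as well, 158 and 56 bases before theirs, and so did 14.7% of all promoters. No window of the 7 held both motifs, and Cnn1, Tpm2 and Oxtr held neither. Sequences that differ from a motif by a letter, as CArG elements often do, were not counted, so no match says nothing of the factor. Binding was not examined.

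All 10 genes were higher in basal cells than in luminal cells of the same library. Together they made up 3.84% of all counts in basal cells and 0.0822% in luminal cells. Each passed the rule for a difference, a CPM ratio of at least 4 with 20 or more counts in both classes together. Of the 10753 genes that had enough counts, 8.14% passed it in that direction. The median log2 ratio of basal over luminal CPM was 5.89 over the 10 genes and -0.01 over all genes tested. Counts are from 3′ ends and were not divided by transcript length, so levels are compared between classes and not between genes.

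Acta2, the smooth muscle alpha-actin of myoepithelium, stood at 18887 CPM in basal cells (18718 to 19057) and 292 CPM in luminal cells (279 to 306), a ratio of 64.7 (61.7 to 67.8). All 1179 basal cells carried it, with a median of 34 counts and a range of 1 to 189. In luminal cells the median was 0 and the highest 120, so single cells of the classes overlapped although the class levels were far apart. Actg2, the gamma-actin of enteric smooth muscle, stood at 265 CPM in basal and 3.44 CPM in luminal cells, a ratio of 77.0 (50.4 to 124). It was sparse, with a median of 0 and a highest value of 11 counts in basal cells.

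**Figure D1:**
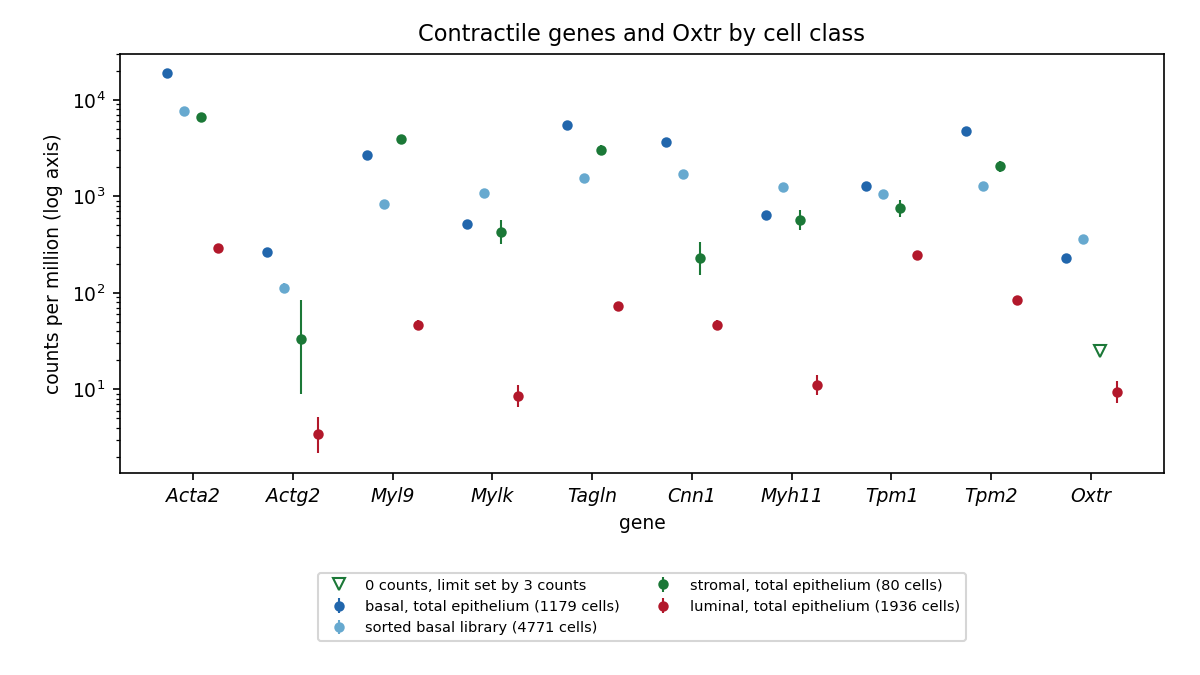
Level of each gene (x axis) in CPM (counts scaled to a common total, y axis, log scale) in basal, stromal and luminal cells of the total epithelium and in the whole sorted basal library, with 95% Poisson intervals for counting error and an open triangle at the limit set by 3 counts where no count was found. Luminal levels sit below basal levels for all 10 genes, with the smallest gap for Tpm1, and Oxtr had 0 counts in stromal cells.

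The 3 myosin genes had similar ratios. Myl9, the regulatory light chain of smooth muscle myosin, stood at 2674 CPM in basal and 46.5 CPM in luminal cells, a ratio of 57.5 (51.2 to 64.8). Mylk, the kinase that phosphorylates this light chain, stood at 523 and 8.61 CPM, a ratio of 60.7 (46.4 to 81.1). Myh11, the heavy chain, stood at 635 and 11.1 CPM, a ratio of 57.1 (45.0 to 73.5). The intervals of the 3 ratios overlapped.

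Of the thin filament proteins, Tagln stood at 5498 CPM in basal and 73.4 CPM in luminal cells, a ratio of 74.9 (68.3 to 82.3). Cnn1, which restrains actin-activated myosin, stood at 3644 and 46.8 CPM, a ratio of 77.9 (69.4 to 87.7), with an interval that overlapped those of Tagln, Actg2, Mylk and Myh11. Tpm2 stood at 4744 and 83.6 CPM, a ratio of 56.8 (52.0 to 62.0). The other tropomyosin departed from this pattern. Tpm1 stood at 1297 CPM in basal and 247 CPM in luminal cells, a ratio of 5.26 (4.95 to 5.59), and its interval lay below those of the other 9 genes.

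Oxtr, which couples to calcium release, stood at 228 CPM in basal cells (210 to 248) and 9.39 CPM in luminal cells (7.17 to 12.1), a ratio of 24.3 (18.6 to 32.2). That interval lay above the one of Tpm1 and below those of the other 8 genes. A count was found in 32.7% of basal cells (30.0 to 35.4%) at a median of 1863 UMIs, and in 2.53% of luminal cells (1.88 to 3.33%) at a median of 3005 UMIs. The highest basal cell had 9 counts.

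The size of most ratios depended on luminal cells that held a basal keratin count. With the luminal cells holding any Krt5 or Krt14 left out, the ratio rose to 224 for Acta2, 244 for Actg2, 245 for Tagln, 242 for Cnn1, 160 for Mylk, 157 for Myl9, 121 for Myh11 and 104 for Tpm2. The ratios of Oxtr and Tpm1 were 25.7 and 5.34 and so stayed near their values over all luminal cells.

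Each gene was still found in a larger share of basal than of luminal cells at equal depth. With every cell of the total epithelium thinned to 800 UMIs, which left no cell out, Acta2 was found in 99.1% of basal and 6.56% of luminal cells. Tagln, Tpm2, Cnn1 and Myl9 were found in 94.1, 90.0, 86.7 and 81.3% of basal cells, and in 3.87, 3.36, 2.79 and 2.43% of luminal cells. Myh11 and Mylk were found in 36.0 and 30.8% of basal cells and in 0.981 and 0.826% of luminal cells. Tpm1 was the member found in most luminal cells, 13.1% against 59.4% of basal cells. Oxtr and Actg2 were found in 15.8 and 14.9% of basal cells and in 0.826 and 0.362% of luminal cells. Without thinning, the shares were 100% and 15.5% for Acta2, and 83.9% and 37.4% for Tpm1.

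Most luminal counts of the contractile genes came from few cells. Of the 1936 luminal cells, 45 had 10 or more Acta2 counts, and these held 80.7% of the luminal Acta2 counts. They also held 86.4% of the luminal counts of Actg2, 83.8% of Myl9, 80.0% of Mylk, 77.5% of Myh11, 71.9% of Cnn1, 71.2% of Tagln and 56.0% of Tpm2. Tpm1 and Oxtr stood apart, since the same 45 cells held 8.25% of the luminal Tpm1 counts and 13.3% of those of Oxtr. Luminal Acta2 moved with the basal keratin counts that the luminal rule still allows. Its mean was 0.275 counts in the 1692 luminal cells with no Krt5 or Krt14 count, 1.88 in the 183 cells with 1 and 34.5 in the 17 cells with 4. Of all cells of the library, luminal or not, 25 had exactly 5 such counts and 42 had exactly 4. Acta2 stood at 13107 CPM in the former and 13505 CPM in the latter, Cnn1 at 2699 and 1915 CPM, and Oxtr at 182 and 85.4 CPM on 7 counts each. In the 45 cells (median 1744 UMIs) the 10 basal markers summed to 6966 CPM and the 7 luminal markers to 7260 CPM. Both sums lay between those of the basal and luminal classes. The luminal sum was nearer the 5369 CPM of basal cells than the 40135 CPM of luminal cells. Whether the 45 are basal cells just under the keratin threshold, or hold RNA of a basal cell beside their own, was not tested.

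**Figure D2:**
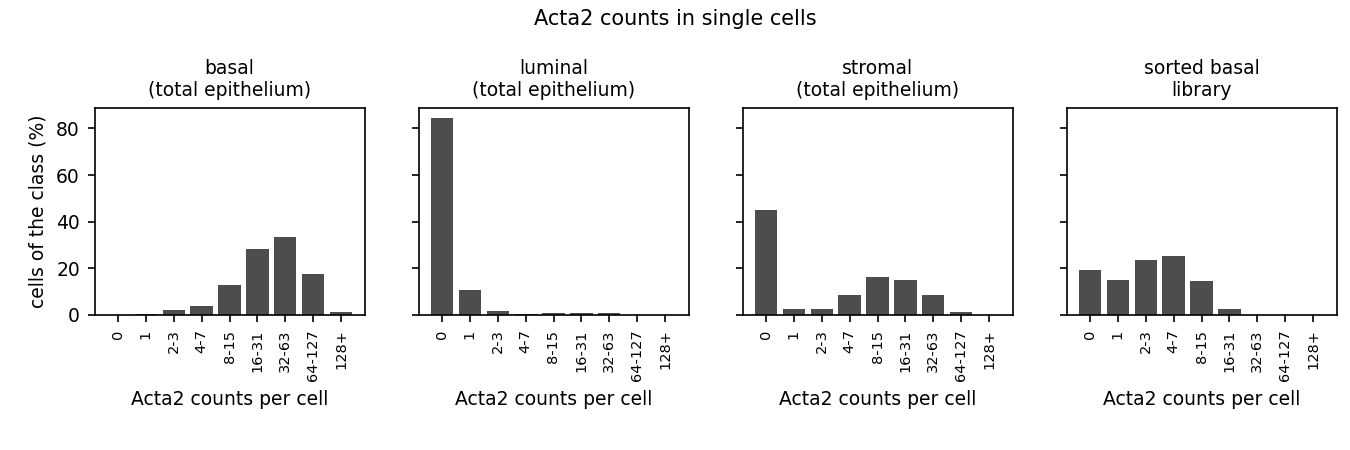
Percentage of cells (y axis) with each number of Acta2 counts (x axis, binned) in basal, luminal and stromal cells of the total epithelium and in the sorted basal library. Basal cells sit mostly between 8 and 127 counts, most luminal cells are at 0 with a thin tail that reaches 120, and stromal cells form a group at 0 and a broad group of higher counts.

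In the 1636 luminal cells without an Acta2 count, a set chosen after the values were seen and one that favours cells poor in contractile RNA, Oxtr stood at 8.52 CPM (6.21 to 11.4) and Tpm1 at 227 CPM. Both were near their levels over all luminal cells. The highest cell, which belonged to the Acta1- and Ckm-rich cells described below, held 346 of the 1200 Tpm1 counts in this set. Over all luminal cells without the Acta1- and Ckm-rich cells, Tpm1 stood at 179 CPM. In the cells without an Acta2 count, Tagln stood at 14.2 CPM, Cnn1 at 9.84 CPM, Myl9 at 3.79 CPM and Myh11 at 2.46 CPM. Luminal Oxtr and Tpm1 counts thus lay mostly in cells without Acta2, and those of the other genes did not.

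Luminal cells were divided by 7 progenitor markers such as Kit, Elf5 and Aldh1a3 and 7 mature markers such as Esr1, Pgr and Prlr. This gave 788 progenitor-gene cells (median 2733 UMIs) and 1054 mature-gene cells (median 3109 UMIs). Oxtr had 49 counts, or 19.3 CPM (14.3 to 25.5), in progenitor-gene cells and 8 counts, or 2.31 CPM (0.998 to 4.55), in mature-gene cells. The ratio was 8.34 (3.92 to 20.4), and it was 9.15 (3.84 to 26.5) in cells without Acta2. At 800 UMIs per cell a count was found in 1.78% of progenitor-gene cells (0.975 to 2.96%) and 0.285% of mature-gene cells (0.0587 to 0.830%). The level in progenitor-gene cells was thus above that in mature-gene cells and far below the 228 CPM of basal cells.

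By the rule of a ratio of 2 or more, 8 of the 9 members with enough counts were higher in progenitor-gene than in mature-gene cells, where 12.6% of 9634 tested genes were. Tagln had the largest ratio, with 134 CPM against 9.82 CPM, or 13.7 (9.59 to 20.1). For Acta2 it was 8.25 (7.12 to 9.61), and the other contractile genes past the rule lay between 5.45 and 8.09. Tpm1, with 217 and 165 CPM, had a ratio of 1.31 (1.17 to 1.48), but the highest progenitor-gene cell held 85 of its 551 counts there. That cell belonged to the Acta1- and Ckm-rich cells described below. Among luminal cells without Acta2 the Tpm1 ratio was 0.933 (0.807 to 1.08), so its direction is undetermined. For Tpm2 the highest progenitor-gene cell, which also belonged to the Acta1- and Ckm-rich cells, held 43 of 288 counts. Among luminal cells without Acta2 the Tpm2 ratio was 1.17 (0.672 to 2.03), so its direction is undetermined as well. Actg2 had 18 counts in all and was not tested. Most of these ratios rested on cells that also carried Acta2 or basal keratin. The progenitor markers are found in basal cells too, at 4208 CPM against 532 CPM for the mature markers. In the 45 luminal cells rich in Acta2 they summed to 10226 and 820 CPM. The split can therefore place a cell with basal RNA in the progenitor-gene group, and the part of this in the ratios was not tested. Among luminal cells without Acta2, 6 members had enough counts and 2 passed, Oxtr and Tagln, against 11.5% of all genes there. Tagln stood at 26.9 and 6.09 CPM in these cells, a ratio of 4.41 (2.55 to 7.99). With luminal cells holding any Krt5 or Krt14 left out, 3 passed, and these were Oxtr at 6.72, Tagln at 3.04 and Tpm2 at 2.32. The share of all genes past the rule was not computed for that setting. The ratio of Myl9 was 0.770 there and 0.778 (0.263 to 2.10) in cells without Acta2, the latter on 7 and 13 counts, which leaves its direction undetermined.

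Contractile genes were also abundant in the stromal cells of the total epithelium, where no count of the receptor was found. The 10 genes made up 1.77% of stromal counts. Of the 10, 8 were higher in stromal than in luminal cells by the 4-fold rule, where 15.9% of 9953 tested genes were. Myl9 stood at 3956 CPM in the 80 stromal cells (3609 to 4327), 1.48 times its basal level (1.35 to 1.62). Mylk and Myh11, at 430 and 571 CPM, were 0.823 (0.611 to 1.09) and 0.900 (0.696 to 1.14) times their basal levels, so neither could be set apart from basal cells at this depth. The tropomyosin Tpm1, at 753 CPM, did not pass against luminal cells, with a ratio of 3.05 (2.44 to 3.77).

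By a 2-fold rule, 5 members were lower in stromal than in basal cells, where 14.4% of 8308 tested genes were. Cnn1 had the largest drop that could be measured, to 232 CPM, or 0.0636 of its basal level (0.0422 to 0.0920). Actg2 had 4 stromal counts, or 0.125 of its basal level (0.0339 to 0.321). Acta2 stood at 6604 CPM, or 0.350 (0.326 to 0.375), and Tpm2 at 2061 CPM, or 0.434 (0.382 to 0.493). Oxtr had 0 counts among 120830 stromal counts, which allows up to 24.8 CPM by the 3-count limit and 30.5 CPM by the Poisson interval. By the interval of the ratio it was at least 7.45-fold lower than in basal cells. In the sorted library the same rule gave 130 stromal cells (median 434.5 UMIs), and there Oxtr had 8 counts in 6 cells, or 136 CPM (58.6 to 267), beside 365 CPM over that whole library. The 10 basal markers summed to 5362 CPM in those cells and 4395 CPM in the stromal cells of the total epithelium. This sum does not measure basal RNA in stromal cells. In the fibroblast-like cells of the total epithelium, described below, it was 5547 CPM with Krt5, Krt14 and Trp63 at 0. In the total epithelium, Cnn1, Actg2 and Oxtr thus separated basal from stromal cells more than the actin and myosin genes found in both.

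The stromal cells were not of one kind. They were divided by marker lists into 22 endothelial-like, 16 mural-like, 12 glial-like and 11 fibroblast-like cells, and 19 cells that reached 3 counts of no single list. In the 16 mural-like cells, led by Ndufa4l2, Map3k7cl, Rgs4 and Rgs5, Acta2 had a median of 16 counts and a range of 0 to 54. Myl9 had a median of 9.5 counts (0 to 26) and Tagln of 6.5 counts (0 to 22) in these cells, while Myh11 and Mylk each had a median of 1. Cnn1 had 8 counts in all of them together, and Actg2 and Oxtr had 0. The 19 cells of no single list shared Map3k7cl, Ndufa4l2 and Rgs4 with the mural-like cells among their leading genes, and all 19 carried Acta2, with a median of 12 counts and a range of 4 to 44.

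Fibroblast-like cells carried almost none of these transcripts. Among the 11 of them, led by Tnfaip6, Lum and Col3a1, Acta2 and Tagln had 1 count each, Myl9 had 2 and Tpm1 had 5, and the other 6 genes had 0. In the 12 glial-like cells Acta2 had 11 counts, of which 1 cell held 10. Endothelial-like cells, present although the Lin gate includes CD31, were mixed, with 9 of 22 carrying Acta2 at up to 72 counts and a median of 0. The 8 mural markers summed to 1544 CPM in the endothelial-like cells and 3344 CPM in the mural-like cells, and the part of a second cell's RNA in these droplets was not tested.

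**Figure D3:**
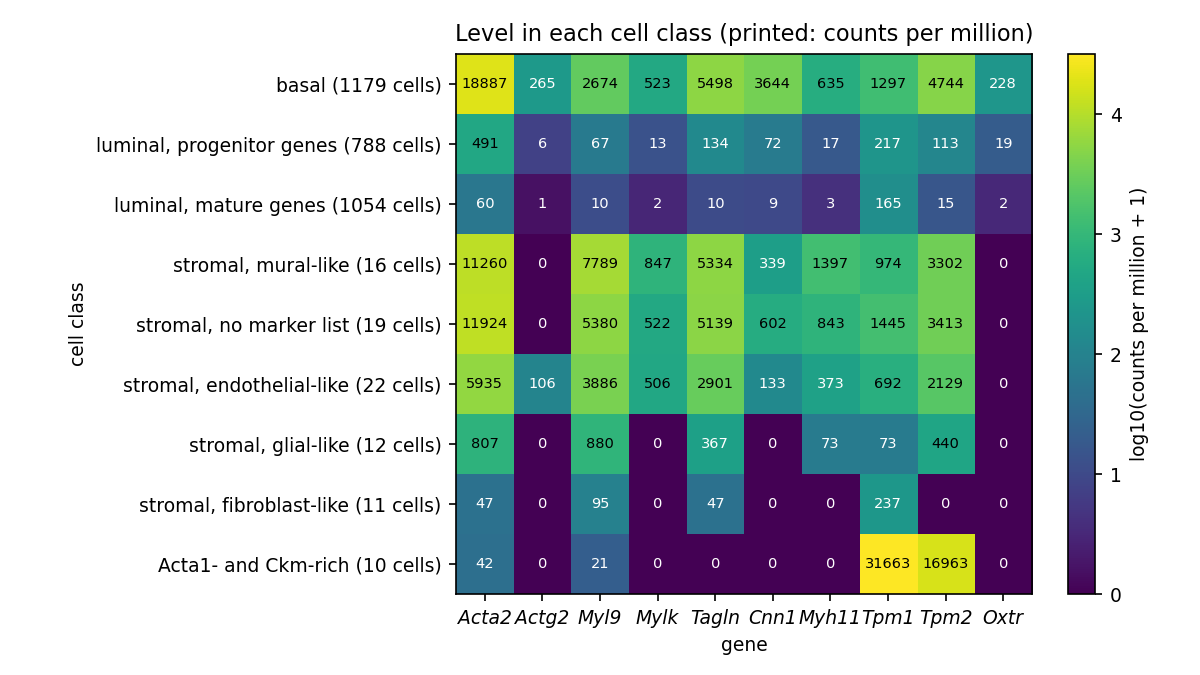
Level of each gene (columns) in each class of cell of the total epithelium (rows), printed in CPM and coloured by log10 of that value plus 1. Acta2, Myl9, Tagln and Tpm2 are high in basal and mural-like cells and in the stromal cells of no list, Oxtr is at 0 in all stromal subsets, and the Acta1- and Ckm-rich cells have the highest Tpm1 and Tpm2 levels and almost none of the others.

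A further set of 10 cells, chosen after the values were seen by 10 or more counts of Acta1 and Ckm together, held the tropomyosins without the rest of the group. Their leading genes were Acta1, Ckm, Tnnt3 and Tnnc2, which belong to skeletal muscle, and 3 of them had fallen in the luminal and 7 in the unclassified class. Tpm1 had a median of 134 counts per cell and a range of 4 to 346, and Tpm2 a median of 66 and a range of 1 to 238. Acta2 had 2 counts and Myl9 had 1 in all 10 cells, and the other genes had 0. The 3 such cells in the luminal class held 435 of its 1576 Tpm1 counts and 131 of its 534 Tpm2 counts, which lowers the Tpm1 and Tpm2 shares given above for the 45 luminal cells rich in Acta2. Without them, the basal over luminal ratio of Tpm1 rose from 5.26 to 7.24 (6.77 to 7.75) and that of Tpm2 from 56.8 to 75.0 (67.9 to 83.0). Tpm1 kept the lowest ratio of the 10.

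Sorted basal cells were set against basal cells of the total epithelium to ask whether both preparations give the same levels. They did not, and genes moved both ways. By the 2-fold rule 1 member was higher and 6 were lower in the sorted library, where 29.6% of 10056 tested genes were higher and 15.6% lower. Tpm2 stood at 1298 CPM in sorted and 4744 CPM in unsorted basal cells, a ratio of 0.274 (0.263 to 0.285). Tagln had a ratio of 0.280 (0.270 to 0.290), Myl9 of 0.312 (0.297 to 0.328), Acta2 of 0.412 (0.405 to 0.418), Actg2 of 0.425 (0.368 to 0.489) and Cnn1 of 0.467 (0.450 to 0.485). In contrast, Mylk stood at 1073 CPM in sorted and 523 CPM in unsorted cells, a ratio of 2.05 (1.92 to 2.19). Myh11 at 1.97 (1.85 to 2.09) and Oxtr at 1.60 (1.44 to 1.78) were also above 1 and did not pass the rule, and Tpm1 stood at 0.819 (0.778 to 0.862). Values near the threshold changed sides under other settings. With the keratin rule in both libraries Cnn1 did not pass (0.539) and Myh11 did (2.18), and the same held with unsorted basal cells holding luminal keratins left out (0.508 and 2.18). With mitochondrial and ribosomal genes out of the total Mylk did not pass (1.962).

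The direction went in part with transcript length. The 3 genes above 1 have longest annotated transcripts of 7824 (Mylk), 6549 (Myh11) and 4704 bases (Oxtr), and the 7 below 1 have transcripts of 1128 (Myl9) to 2890 bases (Tpm1). Over all genes the median log2 ratio of sorted over unsorted CPM was -0.92 for the 2025 genes of 1000 to 2000 bases and 0.83 for the 2864 genes of 4000 to 8000 bases. Across 10046 genes the ratio and the length had a Spearman rho of 0.483, a description over genes that share both libraries. The 4080 genes of 2000 to 4000 bases had a median of 0.75 and a lower quartile of 0.063. Acta2, Tpm2, Cnn1 and Tpm1, with 2035, 2175, 2381 and 2890 bases, are in that bin and stood at -1.28, -1.87, -1.10 and -0.29 on the log2 scale, all below that quartile. Myl9, Tagln and Actg2 are in the bin of 1000 to 2000 bases, which had a lower quartile of -1.48. Myl9 and Tagln, at -1.68 and -1.84, lay below it, and Actg2, at -1.24, lay between it and the median of the bin. The share of ribosomal protein counts moved as well, from 8.22% in unsorted basal cells to 4.22% in the sorted library. The part that length, depth and the sort play in these ratios was not tested, and library and sort cannot be told apart.

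**Figure D4:**
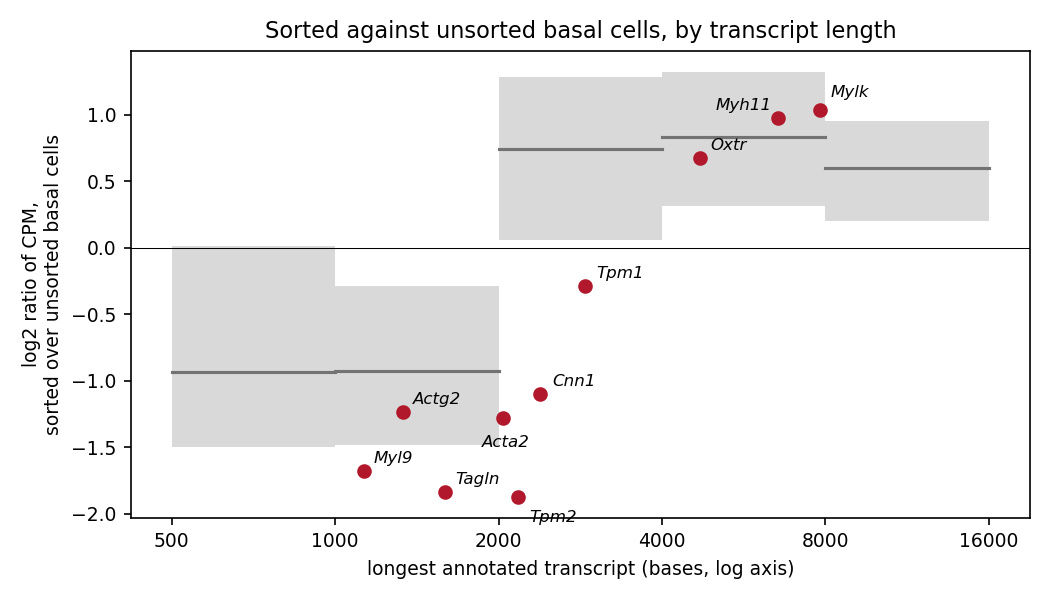
Log2 ratio of CPM in sorted over unsorted basal cells (y axis) against the longest annotated transcript of each gene in bases (x axis, log scale), with the 10 genes as red points and, for all tested genes in bins of length, the median as a grey line and the quartiles as a grey band. Mylk, Myh11 and Oxtr lie above 0 within the band of long genes, and the shorter genes lie below 0.

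The sorted library showed the same genes at a shallower depth. Acta2 had a median of 3 counts (0 to 47) and was found in 80.9% of its cells, and at 400 UMIs per cell, which left out 1594 of 4771 cells, in 83.9% against 97.6% of unsorted basal cells. Oxtr was found in 11.9% of sorted and 7.89% of unsorted cells at that depth, and Mylk in 28.8% and 16.7%. Tagln was found in 36.9% and 80.7%. The shares therefore differed in the same directions as the levels.

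Within the basal class the contractile genes varied together, to a modest degree. The 9 contractile genes made up a median of 3.68% of the counts of a basal cell, with quartiles of 2.40% and 5.06% and a range of 0.0762% to 10.2%. Without thinning, the number of the 10 genes found per basal cell ran from 2 to 10, and 8 was the most common number (305 cells, 25.9%). No basal cell lacked all of them, and 84 held all 10. The ratio of variance to mean in thinned counts, which is 1 for Poisson counting and grows with the level of a gene, was 5.22 for Acta2. It was 2.33 for Tpm2, 2.20 for Tagln, 1.90 for Cnn1 and 1.63 for Myl9, and the sparser Mylk, Oxtr and Myh11 lay at 1.26, 1.22 and 1.16, so each of these genes varied more than counting alone gives and the values do not rank the genes.

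Correlations across the 1179 basal cells were computed on log2 of counts per 10000 plus 1 and are given as descriptions, since all cells share 1 library and their depth. Over the 45 pairs the median Pearson's r was 0.238, with a range of 0.069 to 0.611. The pairs of Acta2 with Cnn1 (0.611), Tpm2 (0.602), Tagln (0.589) and Myl9 (0.542) were the highest. With cells thinned to 800 UMIs the median was 0.137 and the highest pair 0.463. In the shallower sorted library the median was 0.110 and the highest pair 0.244. At 400 UMIs per cell the median was 0.080 in unsorted basal cells and 0.050 in sorted cells. Only 499 of the 1179 basal cells had fewer than 3 counts of Krt8, Krt18 and Krt19. In these the median was 0.181 and the highest pair 0.560, and the part of luminal RNA in the correlations was not tested. Across the 1179 basal cells Oxtr had a median r of 0.112 with the other 9 genes and 0.059 after thinning to 800 UMIs. In counts this sparse that is no finding in either direction.

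**Figure D5:**
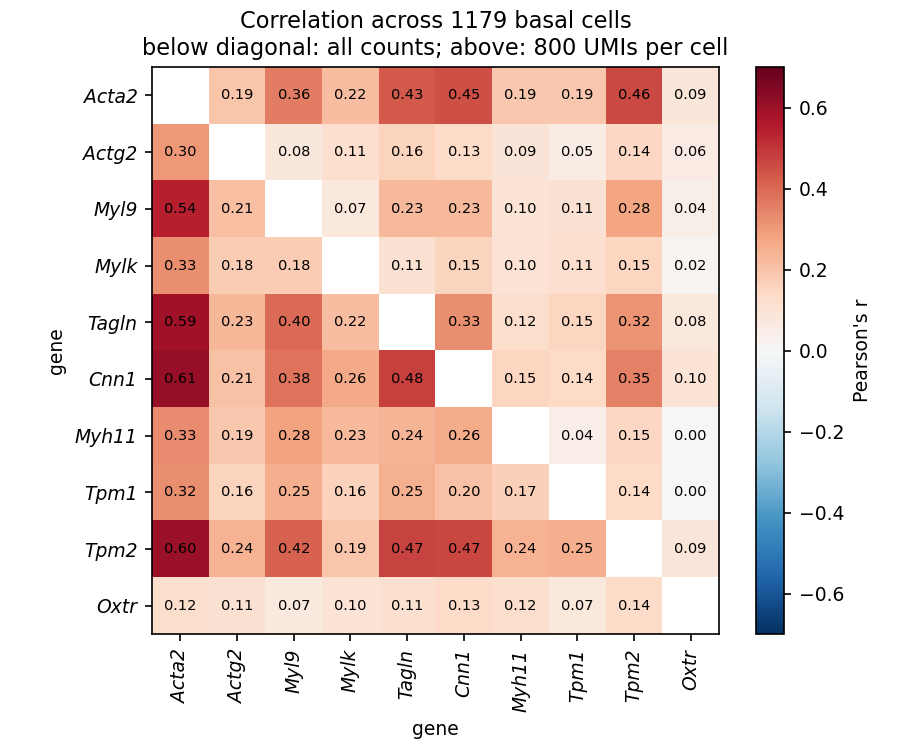
Pearson's r between each pair of the 10 genes across 1179 basal cells of the total epithelium, below the diagonal from all counts and above it from cells thinned to 800 UMIs. Acta2, Tagln, Cnn1, Tpm2 and Myl9 form the block of highest values, and the Oxtr row and column are near 0.

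Basal cells with and without an Oxtr count at 800 UMIs were compared for the other genes. The 186 cells with a count had a mean of 16.6 Acta2 counts (SD 8.82 over cells) and the 993 without had 14.8 (SD 8.87), a ratio of 1.12 (1.08 to 1.17). The ratio was 1.49 (1.08 to 2.02) for the sparse Actg2, 1.25 (1.16 to 1.35) for Tpm2, 1.21 (1.11 to 1.32) for Cnn1 and 1.12 (1.04 to 1.203) for Tagln. For Tpm1 it was 0.906 (0.768 to 1.06), for Myl9 1.03 (0.926 to 1.15), for Mylk 1.05 (0.819 to 1.34) and for Myh11 0.948 (0.743 to 1.198). These intervals cover counting error and leave out the wider spread between cells, so an interval that excludes 1 does not settle a difference. For Acta2 the difference of means was smaller than the SD between cells. The same held for Actg2, with means of 0.296 (SD 0.716) and 0.198 (SD 0.555). The keratins differed too, with Krt5 at 1.46 (1.22 to 1.74) and Krt14 at 0.959 (0.909 to 1.01).

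The genes outside the 10 whose levels were most like the summed 9 contractile genes across basal cells were, among 677 genes with a mean of 0.5 counts or more, Csrp1 (r of 0.448), Igfbp2 (0.339), Pfn1 (0.323), 1600014C10Rik (0.313) and Actn1 (0.303). Csrp1 encodes a LIM protein of smooth muscle, Pfn1 profilin and Actn1 alpha-actinin. The median over the 677 genes was 0.018. In the sorted library the values for these 5 genes were 0.185, 0.118, 0.113, 0.134 and 0.203. The genes most like Oxtr were Tmsb4x (0.165), Krt17 (0.142), Egr1 (0.140), Postn (0.131) and Prss23 (0.129), all weak.

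Other genes of the same machinery were taken from lists chosen by function, and counts are again of a ratio of 4 or more between basal and luminal cells. Of the other actin and myosin genes, 14 of 30 tested were higher in basal cells and 2 were lower, where 8.14% and 7.77% of all genes were, with a median log2 ratio of 1.80 over the list. The focal adhesion gene Tns1 had a ratio of 49.4 (18.6 to 186). Cald1 (caldesmon) stood at 737 and 22.2 CPM, a ratio of 33.1 (27.9 to 39.6). The intermediate filament gene Vim and the actin-nucleating Lmod1 had ratios of 31.2 (26.5 to 37.0) and 26.8 (19.3 to 38.2). Csrp1 stood at 2384 and 242 CPM, a ratio of 9.87 (9.33 to 10.4), and Cnn2, Flna, Pdlim7, Pdlim3 and Actn1 passed as well at 311 CPM or more in basal cells.

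Several forms of these proteins used by most cells did not pass, although Cnn2, Flna and Actn1 above did. Actb stood at 1852 CPM in basal and 1086 CPM in luminal cells, a ratio of 1.71 (1.64 to 1.77), and Actg1 at a ratio of 0.795 (0.771 to 0.821). The ratios were 1.23 for Myl12a, 3.78 for Myl6, 0.789 for Tpm3, 1.55 for Tpm4, 1.09 for Cnn3 and 0.785 for Tagln2. The calponin, transgelin and tropomyosin families thus each held a form past the rule and a form that did not pass. Lower in basal cells were the non-muscle myosin Myh14, with a ratio of 0.194 (0.101 to 0.340), and Acta1, which had 1419 luminal counts and whose main holders are the Acta1- and Ckm-rich cells described above. Another non-muscle myosin, Myh10, named after its value was seen, was higher in basal cells, with a ratio of 12.7 (6.12 to 29.5).

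In the list of oxytocin and calcium signalling, 4 of 26 tested genes were higher in basal cells and 3 lower, beside the 8.14% and 7.77% of all genes, with a median log2 ratio of 0.53. The 4 were Kcnmb1, a subunit of the calcium-activated potassium channel, at 106 with a lower bound of 18.1 on 42 and 1 counts, the calcium channel Cacna1c at 50.7 with a lower bound of 8.11 on 20 and 1 counts, Kcnma1 at 29.1 (7.20 to 255) and Rgs4 at 4.75 (1.89 to 12.9). The 3 lower genes were the cation channel Trpc6, at 0.069 (0.019 to 0.182), and the receptors Adra1a and Ednra. Adra1a stood at 0.072 (0.0018 to 0.431) on 1 basal and 35 luminal counts. Ednra stood at 0.164 (0.019 to 0.643) on 2 and 31 counts, and both intervals reach past the limit of the rule. Calm2 did not pass, with a ratio of 2.59. In the list of relaxation and calcium sensitivity, 5 of 13 were higher, again beside 8.14% of all genes, and none lower (Ppp1r14a, Gucy1b3, Prkg1, Ppp1r12a and Ppp1r12b). Of these Ppp1r12a, the myosin phosphatase targeting subunit, had the most counts, at 371 and 52.3 CPM, a ratio of 7.10 (6.26 to 8.06).

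Regulators of this programme were sparse. Trp63, the basal lineage factor, stood at 73.8 and 2.19 CPM, a ratio of 33.7 (19.6 to 62.8). Tead1 and Nfatc1 also passed, at 8.18 (5.56 to 12.3) and 4.40 (2.43 to 8.19), so that 3 of 7 tested were higher, beside 8.14% of all genes, and none lower. Srf stood at 28.2 and 11.3 CPM, a ratio of 2.50 (1.78 to 3.52), and did not pass. Myocd, the smooth muscle coactivator of serum response factor, had 0 counts in basal and in luminal cells, which allows up to 1.19 CPM in basal cells by the 3-count limit, and 1 count in the mural-like cells.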

How the data were processed

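The 2 libraries were prepared with the 10X Chromium 3′ protocol. The deposited values are counts of unique molecules per gene and cell, made by the authors with Cell Ranger (version 1.2.1 in the submitters' processing notes, a later release in the study's methods) on mm10, without normalization. Barcodes had been called as cells before deposit, and all of them were kept. Total counts were 2488704 in the sorted basal library and 9227651 in the total epithelium. Counting leaves out reads shared between near-identical genes, which can lower paralogs such as the actins and tropomyosins. No doublet caller was run, and cells holding keratins of both lineages were left out as an alternative.

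Counts were summed over the cells of a class and divided by the class total to give CPM. Classes, marker lists and the genes to be named (the 10 members, list genes past the fold rule with at most 5 per direction, list genes at 300 CPM or more in basal cells, and the 5 genes most like the contractile sum and Oxtr) were chosen with earlier results of these data known, and 2 list genes that the rule names are not reported here. With 1 library per group no test between samples was made, and a difference is a CPM ratio of at least 4 between compartments or 2 between libraries, stromal and basal cells, or luminal subsets, with 20 or more counts. A floor of 3 counts stood for 0. Intervals are at 95% and cover counting error only. Python 3.11.15, numpy 2.4.6, scipy 1.17.1 and pandas 2.3.3 were used, and figures were drawn with matplotlib 3.10.9. Ratios, calls, thinning and correlations were tested on simulated data. Gene lengths are those of the longest transcript in the GRCm38 annotation, and promoters are from RefSeq. Alternatives were another total, a mean of per-cell CPM, other keratin thresholds, a doubled fold, no minimum count and other sets of sorted or stromal cells.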

Additional observations from a re-analysis of the deposited data

How the results depend on the processing

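The count of members higher in basal than luminal cells was 9 or 10 under each of the 10 alternatives, Tpm1 being lost at the doubled fold, and the count higher in stromal than luminal cells was 7 to 9. Between progenitor-gene and mature-gene luminal cells the count fell from 8 to 3 without luminal cells holding Krt5 or Krt14, and to 2 without those holding Acta2, where Myl9 had ratios of 0.770 and 0.778, the latter with an interval of 0.263 to 2.10. Without luminal cells holding Krt5 or Krt14, the basal over luminal ratios of 8 members rose to between 104 (Tpm2) and 245 (Tagln). At the doubled fold, 0 members differed between sorted and unsorted basal cells, and under the other alternatives 6 or 7 did, with Cnn1, Myh11 and Mylk changing sides. In the main setting 29.6% of all genes were higher and 15.6% lower in the sorted library. Shares of all genes are given only for the main settings and for luminal cells without Acta2 (11.5%). Member and list-gene counts under the other alternatives therefore cannot be set against all genes. The summed share in basal cells, 3.84%, was 4.20% without mitochondrial and ribosomal genes in the total, 3.96% at 10 or more keratin counts, 3.64% without basal cells holding luminal keratins, and 4.08% without those with as many luminal as basal keratin counts. The median share of basal cells with a count, over the 10 genes, was 88.2%, and became 70.3% at 800 UMIs and 84.5% without basal cells holding luminal keratins. The median r of 0.238 became 0.137 and 0.181 under the same changes. The alternatives without Acta1- and Ckm-rich cells, without luminal cells holding Acta2, and by keratin balance were chosen after seeing the data. The number of list genes higher in basal cells, 26, was 19 at the doubled fold. No paired analysis was possible because each group is 1 library. Depth limits the 80 stromal cells and the sparse genes Actg2 and Oxtr most, and with pooled mice no variation between animals could be measured.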

Other observations

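Receptor and signalling genes of the contractile lists other than Oxtr were found in stromal cells. Avpr1a, the vasopressin receptor related to Oxtr and named after its values were seen, stood at 331 CPM over the 80 stromal cells of the total epithelium, with 593 CPM in the 16 mural-like cells and 442 CPM in the 19 cells of no list. It had 1 count in basal cells, or 0.397 CPM, and stood at 18.1 CPM in the sorted basal library. Rgs4 and Rgs5, which dampen G protein signalling, stood at 1397 and 847 CPM in mural-like cells and 5.95 and 0.397 CPM in basal cells. Rgs5 is one of the markers that chose the mural-like cells, so its level there is a description. Ednra stood at 42.3 CPM in mural-like cells, 1 count, and Adra1a had 0 counts there.

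Of the 677 genes compared across basal cells, those lowest in likeness to the summed contractile genes were Chil1 (r of -0.334), Trf (-0.293), Malat1 (-0.229) and Gpx3 (-0.220), named after their values were seen. In the sorted library the values were -0.086, -0.130, -0.015 and -0.150. Trf is one of the luminal progenitor markers used above, and many basal cells held luminal keratin counts. The part of luminal RNA in these values was not tested.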
